A study of Ooceraea biroi with 96 samples.

Results

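Across 96 libraries of single ant brains, 106 of 13755 annotated features had expression that was low or moderate in most brains and very high in a few. A library was counted as spiking for a gene when the gene reached at least 20 CPM (a gene's counts divided by the library total, times 1e+06) and at least 20 times the median CPM of the libraries of the same age plus 0.1. Members had 1 to 10 spiking libraries and did not change 2-fold or more between ages in all 4 genotype-environment groups. The members were chosen by these measured CPM values in the same 96 libraries, so the spikes and all contrasts with age are given as description, without a test. Of 147 genes with any spike, 41 were set aside by the age limit, and no gene spiked in more than 6 libraries.

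The brains came from clonal raider ants (Ooceraea biroi) of 2 clonal lines, B and M, that had been reared in a social environment of either line and were sampled 1 or 8 days old. Groups are named genotype in environment, so MinB is an ant of genotype M in environment B. At day 1 there were 7 BinB, 9 BinM, 14 MinB and 20 MinM libraries, and at day 8 there were 10 BinB, 10 BinM, 12 MinB and 14 MinM libraries. Every library was one whole brain of one individual, and no group carried a further treatment or allele per the labels. The labels do not tie individuals to colonies, so individuals were treated as independent and p-values measure the spread between individuals. If individuals of a group shared a colony, the p-values may be too small, above all for social environment.

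The clonal raider ant has no queens. Its workers reproduce by parthenogenesis, so that individuals of a clonal line are nearly identical genetically, and colonies alternate between phases of egg laying and of brood care. The ant brain, with its mushroom bodies, antennal lobes and optic lobes, holds neurons and glia, and a whole-brain library sums the RNA of all cells collected. A difference in CPM between whole brains can therefore come from more or fewer cells of a type or from more or less RNA per cell, and these cannot be told apart. All members carry LOC identifiers without a product name in the annotation at hand, so no role can be given for any of them and the identity of the tissue could not be checked by marker genes.

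Library totals were 13.9 to 25.3 megacounts at day 1 and 10.7 to 26.96 megacounts at day 8. The 5 libraries that lead the results below were of ordinary depth for their age: 20.8 megacounts in BinB day 1 replicate 2, 17.6 in MinB day 1 replicate 12, 14.6 in MinM day 1 replicate 19, 15.2 in BinB day 8 replicate 3 and 16.3 in MinM day 8 replicate 9. BinB day 1 replicate 2 had a count for 11515 genes, the highest number of any library (day 1 median 10936), and the part of this in its spikes was not tested. The lowest count behind any spike was 305 and the median was 1086, so counting error was small beside the spikes. It may not be small for the values under 1 CPM given below, which rest on few reads.

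Spikes were gathered in few brains. The 106 members gave 139 spikes in 27 of the 96 libraries, while 69 libraries had none, 17 had 1 and 5 had 2 or 3. The other 5 libraries held 110 of the 139 spikes (79.1%). MinM day 8 replicate 9 had 47 spiking members, MinB day 1 replicate 12 had 32, MinM day 1 replicate 19 had 13, BinB day 1 replicate 2 had 11 and BinB day 8 replicate 3 had 7. MinM day 8 replicate 9 and MinB day 1 replicate 12 alone held 79 spikes (56.8%). For 86 members every spike was in these 5 libraries, and 14 members spiked in none of them.

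**Figure D1:**
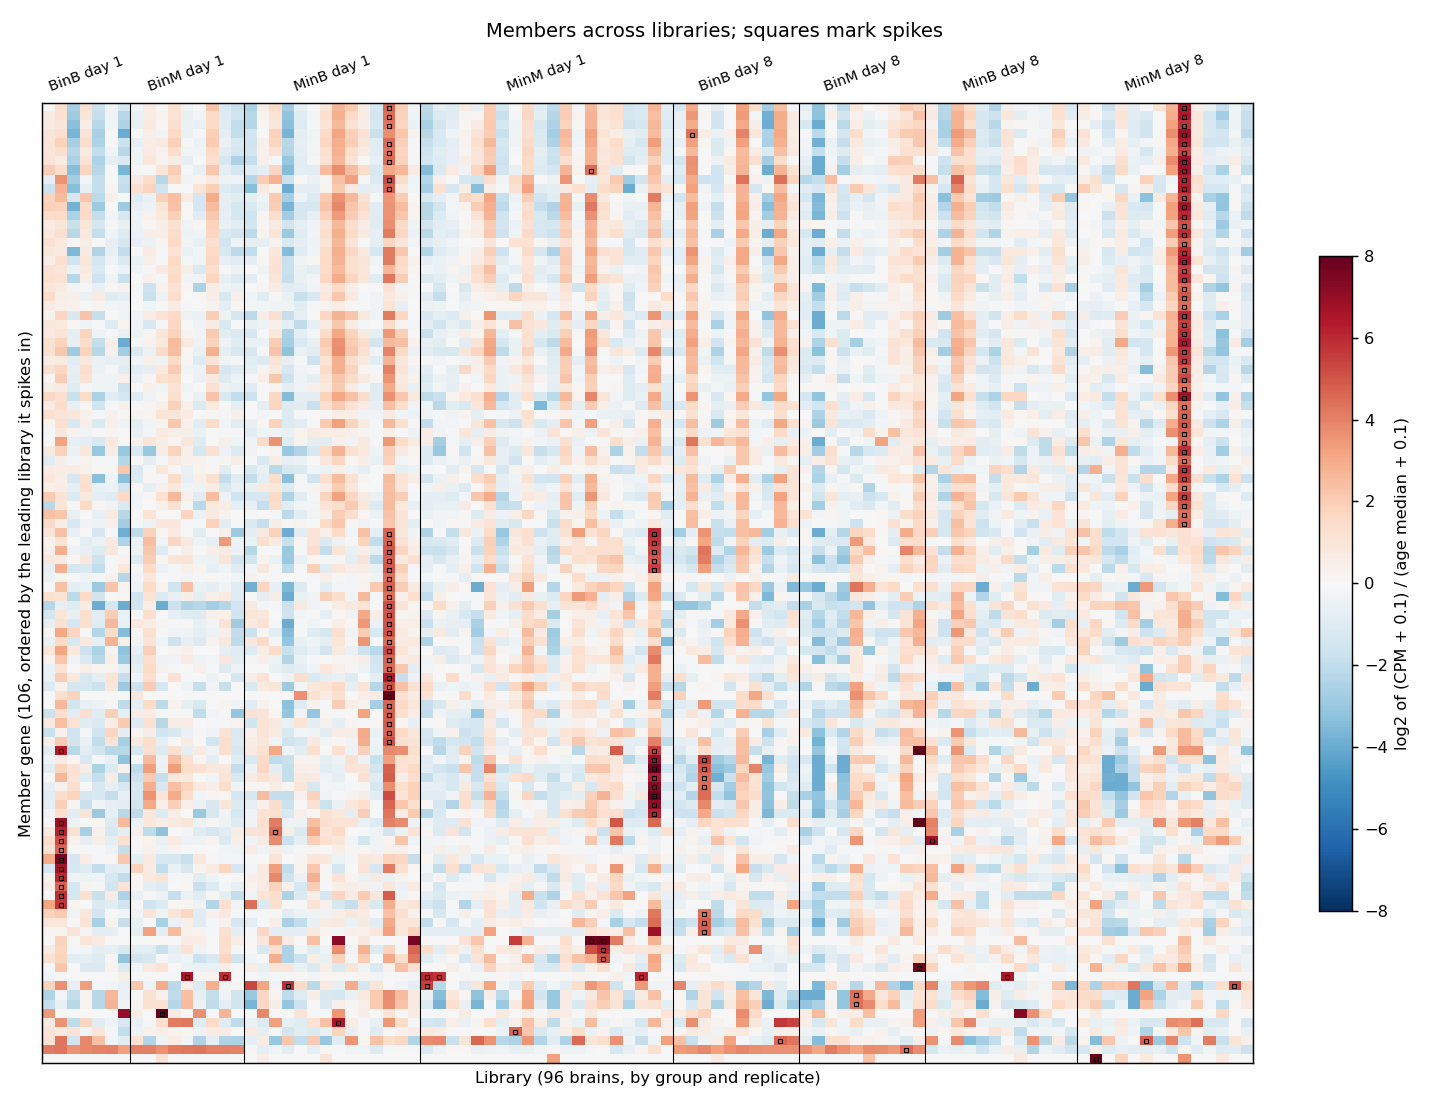
Each row is 1 of the 106 members and each column 1 of the 96 libraries, in group order; colour is the log2 ratio of CPM + 0.1 to the age median + 0.1, and black squares mark spikes. Dark columns stand out at MinM day 8 replicate 9 (47 members) and MinB day 1 replicate 12 (32 members), the upper block of rows also shows paler red columns in other libraries, and some dark cells carry no square because their CPM stayed under 20.

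No group was free of spiking libraries, and none had a median above 0. At day 1 a spike was seen in 1 of 7 BinB, 3 of 9 BinM, 4 of 14 MinB and 7 of 20 MinM libraries. At day 8 it was seen in 3 of 10 BinB, 3 of 10 BinM, 2 of 12 MinB and 4 of 14 MinM libraries. The number of spikes per library ran from 0.167 in MinB day 8 to 3.57 in MinM day 8, and this order rested on single brains: without the 5 leading libraries it was 0 in BinB day 1, 0.526 in MinM day 1, 0.167 in MinB day 8, 0.6 in BinM day 8 and 0.222 to 0.333 in the other 4 groups. The highest libraries of different groups therefore differed far more than the groups' typical brains, which all lay at 0.

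**Figure D2:**
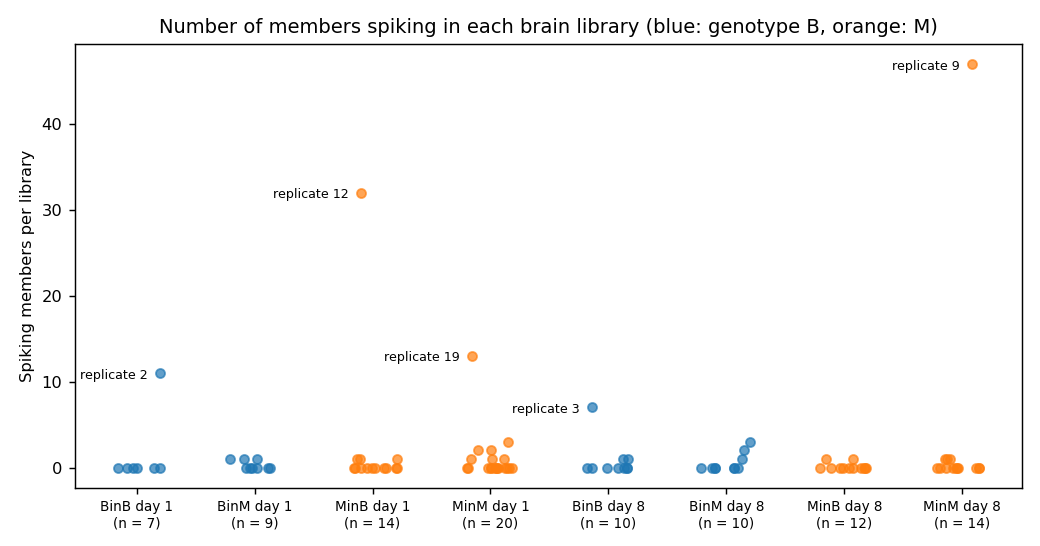
Each dot is 1 library; the vertical axis is the number of the 106 members that spike in it, the horizontal axis the group with its number of libraries, and blue and orange mark genotypes B and M. The 5 labelled libraries hold 7 to 47 spiking members, and the other libraries hold 0 to 3.

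By age and genotype, 59 members spiked in a day 1 library and 65 in a day 8 library, and 18 spiked at both ages, which is 30.5% of the former and 27.7% of the latter. Spikes lay only in genotype M libraries for 80 members, only in genotype B libraries for 16, and in both for 10. These counts follow the 3 M libraries among the 5 leading ones and say nothing by themselves about genotype. Most members spiked once: 79 had 1 spiking library, 24 had 2, 2 had 3 and 1 had 6.

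Members differed widely in ordinary level. The median over all 96 libraries was under 1 CPM for 40 members, from 1 to 10 CPM for 44 and 10 CPM or more for 22. Their highest values were 1000 CPM or more for 13 members, 100 to 1000 CPM for 29 and under 100 CPM for 64. Spikes ranged from 20.1 to 26391 CPM and from 20.3 to 452 times the age median plus 0.1, with a median of 39.98 times.

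The largest set was that of MinM day 8 replicate 9. Its 47 members summed to 37487 CPM there, their median was 233 CPM, and 37 of them spiked in no other library. Leaving aside LOC105279483, which is described further on, members took 3.78% of the counts in MinM day 8 replicate 9. In the other 95 libraries they took 0.0229% to 1.42% (median 0.103%). With LOC105279483 counted, the share was 3.80% in MinM day 8 replicate 9 and 2.75% in BinM day 1 replicate 6, the next highest. The set held genes of higher ordinary level than the other leading sets: 19 of the 47 had a median of 10 CPM or more, against 6 of the 32 members spiking in MinB day 1 replicate 12 and none of the 13 in MinM day 1 replicate 19 or the 11 in BinB day 1 replicate 2.

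The highest member there was LOC105286657 on chromosome 6 (positions 5696334 to 5815681, minus strand), a protein-coding gene with 130 separate exon blocks and 70171 exonic bases. It reached 6828 CPM in MinM day 8 replicate 9, against 15.3 CPM in the lowest library, a median of 153 and 991 in the next highest library of that group. In BinB day 8 it ranged from 22.5 to 1326 CPM (median 173), in BinM day 8 from 11.4 to 604 (median 104) and in MinB day 8 from 14.5 to 618 (median 153). The 4 groups of day 8 thus overlapped almost wholly, and MinM day 8 replicate 9 lay alone above them, more than 5-fold over the next brain. At day 1 the gene ranged from 8.81 to 998 CPM over all groups, with group medians of 39.2 to 87.8 CPM.

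LOC105283737 (chromosome 10, positions 7969548 to 8012205) followed with 5091 CPM in MinM day 8 replicate 9, where the other MinM day 8 libraries went from 5.98 to 524 CPM. Its next highest values in the series were 1970 CPM in MinM day 1 replicate 14 and 1537 CPM in MinB day 1 replicate 8, and neither was a spike because the day 1 median was 105 CPM. LOC105287980 on chromosome 2 reached 2822 CPM against a day 8 median of 40.5. LOC105284544, LOC105277700 and LOC105283597 reached 1808, 1664 and 1399 CPM. For each of these 4 genes the value in MinM day 8 replicate 9 was the highest of the series, and for each of them MinM day 1 replicate 14 was among the 3 highest libraries.

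MinB day 1 replicate 12 was the leading brain of the younger age. Its 32 spiking members summed to 6561 CPM, their median was 46.4 CPM, and 19 of them spiked nowhere else. This brain also held 26 of the 53 spikes of the 41 genes that the age limit set aside, against 1 in MinM day 8 replicate 9. With both kinds of genes counted, it had 58 spiking genes, more than the 48 of MinM day 8 replicate 9, so the age limit decides which of the pair comes first.

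The pair shared 8 spiking members, which is 25% of the MinB day 1 replicate 12 set and 17.02% of the MinM day 8 replicate 9 set. They were LOC105274739, LOC105276259, LOC105276260, LOC105281641, LOC105281721, LOC105282008, LOC105282359 and LOC105284373. LOC105274739 (chromosome 10, positions 1683970 to 1685727, minus strand) reached 2964 CPM in the older brain and 537 CPM in the younger one. In the other MinM day 8 brains it went from 9.52 to 222 CPM around a group median of 33.4, and in the other MinB day 1 brains from 3.03 to 138 CPM around a group median of 30.02. Group medians of this gene lay between 16.2 and 35.9 CPM in all 8 groups, which overlapped throughout.

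LOC105281641 (chromosome 2) showed the same pair of high brains, with 2589 CPM in MinM day 8 replicate 9 and 1132 CPM in MinB day 1 replicate 12, and 369 CPM as its highest value elsewhere. LOC105282359 (chromosome 7) and LOC105284373 (chromosome 7) were higher in the younger brain: 1905 against 1302 CPM and 862 against 677 CPM. LOC105282359 shares exonic positions with another gene on its own strand, so the split of reads between the genes is uncertain. LOC105281721 and LOC105282008 reached 1034 and 411 CPM in the older brain and 406 and 237 CPM in the younger.

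Members that did not reach the spike limit were also raised. Of the 47 members of the MinM day 8 replicate 9 set, 8 spiked in MinB day 1 replicate 12 and so exceeded 20 times the median there by the rule. The other 39 had a median of 6.17 times the day 1 median in that brain, and 27 of them (69.2%) were at least 5 times above it. So were 19 of the 35 members that spiked in neither brain (54.3%), and 1.75% of 8890 other genes that averaged 1 CPM or more, none of which was chosen for an extreme library. Raised levels in MinB day 1 replicate 12 were thus common among members in general. In the reverse direction, 24 members of the MinB day 1 replicate 12 set did not spike in MinM day 8 replicate 9, and 5 of them (20.8%) were at least 5 times the day 8 median there, beside 7 of the 35 members that spiked in neither (20%) and 0.765% of the other genes.

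**Figure D3:**
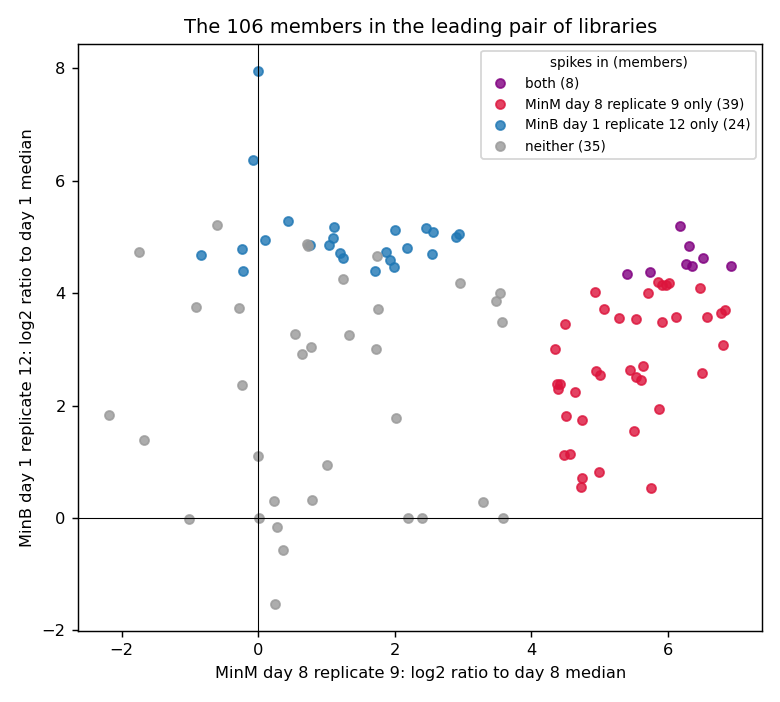
Each dot is 1 of the 106 members; the axes are the log2 ratios of CPM + 0.1 to the age median + 0.1 in MinM day 8 replicate 9 and in MinB day 1 replicate 12, and colours show in which of the pair the member spikes. All 39 members spiking only in the older brain lie above 0 on the vertical axis, while the 24 that spike only in the younger brain spread from below 0 to about 3 on the horizontal axis.

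MinM day 1 replicate 19 held 13 spiking members with a median of 70.0 CPM. It shared 5 with MinB day 1 replicate 12 (38.5% of its own set and 15.6% of the other), namely LOC105274797, LOC105275618, LOC105275890, LOC105280228 and LOC105286656. It shared 4 with BinB day 8 replicate 3 (30.8% of its own set and 57.1% of the other), namely LOC105278585, LOC105279372, LOC105282231 and LOC105285570. No member spiked in all 3 brains.

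LOC105275890 (chromosome 4, positions 11520426 to 11527923, plus strand) had the highest value in MinM day 1 replicate 19, at 168 CPM, where the other libraries of that group went from 0.214 to 25.3 CPM around a median of 2.39. In MinB day 1 replicate 12 it reached 62.1 CPM, against 12.5 CPM in the next library and a median of 3.68. It stood at 72.3 CPM in BinB day 8 replicate 3, which was no spike because the day 8 median of 6.02 CPM set a higher limit. The remaining groups overlapped, with medians of 2.16 to 11.1 CPM. Of the same 5 genes, LOC105280228, LOC105286656, LOC105275618 and LOC105274797 reached 93.5, 83.2, 62.7 and 38.7 CPM in MinM day 1 replicate 19, and 43.9, 65.6, 59.0 and 27.2 CPM in MinB day 1 replicate 12.

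LOC105285570 (chromosome 1, positions 14480746 to 14508420, plus strand) was highest in BinB day 8 replicate 3, at 302 CPM, where the next library of the group had 38.02 CPM and the group median was 2.53. In MinM day 1 replicate 19 it reached 109 CPM, against 4.46 CPM in the next library and a median of 0.901. LOC105279372, also on chromosome 1, reached 152 CPM in MinM day 1 replicate 19 and 75.3 CPM in BinB day 8 replicate 3. LOC105278585 and LOC105282231 stood at 45.6 and 38.01 CPM in the former brain and at 53.6 and 47.1 CPM in the latter.

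With the shared spikes left aside, 8 members of the MinM day 1 replicate 19 set remained for MinB day 1 replicate 12, and all 8 were at least 5 times their median there (median 22.2 times), beside 38 of the 66 members that spiked in neither (57.6%) and 1.75% of other genes. For BinB day 8 replicate 3 there were 9 such members, of which 8 were at least 5 times their median (median 11.8 times), beside 4 of the 90 members that spiked in neither (4.44%) and 0.259% of other genes. The 3 members of the BinB day 8 replicate 3 set that did not spike in MinM day 1 replicate 19 were all at least 5 times their median there, beside 38 of those 90 members (42.2%) and 0.585% of other genes. These 3 brains were of 3 different groups and of both genotypes, environments and ages.

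Of the 11 members spiking in BinB day 1 replicate 2, 7 spiked in no other library. LOC105279557 (chromosome 9, positions 12807849 to 12823608, minus strand) reached 116 CPM there, while the other BinB day 1 libraries went from 1.11 to 9.54 CPM and no other library of the series exceeded 9.54. LOC105283796 (chromosome 4, positions 14557104 to 14563516, minus strand) reached 106 CPM against 4.27 CPM in the next library and a group median of 0.727. LOC105284785 (chromosome 1) reached 68.5 CPM there and spiked again at 20.9 CPM in MinB day 1 replicate 3. The set was raised below the limit in a few brains. Among its members that did not spike there, 5 of 10 in MinB day 1 replicate 3, 6 of 10 in MinB day 8 replicate 1 and 4 of 11 in MinM day 1 replicate 16 were at least 5 times the age median. The same held for 5.26%, 2.11% and 4.21% of the members that spiked neither there nor in BinB day 1 replicate 2, and for 0.124%, 0.09% and 0.0675% of the other genes. In BinB day 1 replicate 2 itself, 0.956% of the other genes were at least 5 times above theirs.

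LOC105287262 (chromosome 5, positions 2683499 to 2686803, minus strand) linked BinB day 1 replicate 2 to brains outside its group. It reached 37.6 CPM there, 20.96 CPM in MinM day 1 replicate 19 and 387 CPM in BinM day 8 replicate 10. The next value in BinM day 8 was 2.29 CPM, and its medians were 0.0608 to 1.07 CPM in the 8 groups. BinM day 8 replicate 10 shared 2 of its 3 spiking members with BinB day 1 replicate 2.

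The 14 members that spiked outside the 5 leading libraries formed no large set. LOC105279483 (chromosome 9, positions 15605082 to 15639359, plus strand) was the most abundant and the most frequent spike of all, in 6 libraries. It reached 26391 CPM in BinM day 1 replicate 6 and 17273 in BinM day 1 replicate 9, then 18475, 17782 and 14859 CPM in MinM day 1 replicates 18, 1 and 2, and 17419 CPM in MinB day 8 replicate 7. In the other 90 libraries it went from 151 to 373 CPM, so that no brain lay between 373 and 14859 CPM. Of these 6 libraries, MinM day 1 replicate 1 held a spike of 1 other member, LOC105286419, and the other 5 held none.

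LOC105286419 (chromosome 10) spiked in MinB day 1 replicate 4, MinM day 1 replicate 1 and MinM day 8 replicate 13, at 25.2, 20.6 and 44.5 CPM. Its highest value in a library where it did not spike was 22.9 CPM. LOC105276730 (chromosome 6) was at 38.5 and 22.9 CPM in MinM day 1 replicates 15 and 14, and at a median of 0 at both ages. LOC105274787 spiked with 50.4 CPM in BinM day 8 replicate 10 and was never above 2.27 CPM in another library, and LOC105282943 at 28.9 CPM in MinM day 8 replicate 2 and never above 1.10 CPM in another.

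**Figure D4:**
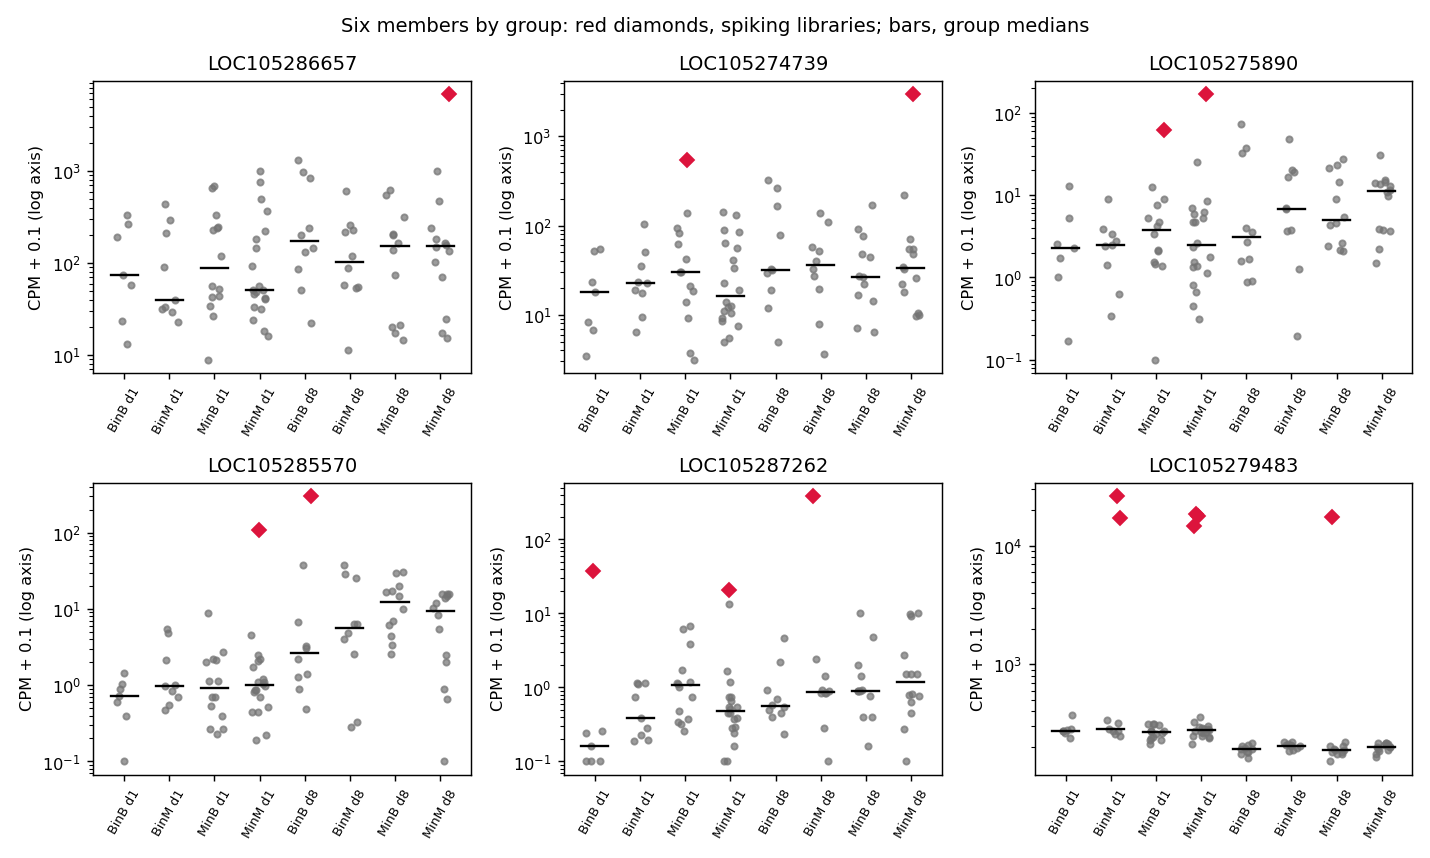
CPM + 0.1 on a log axis for 6 members in the 8 groups, with 1 dot per library, red diamonds for spiking libraries and a bar at each group median. The values of LOC105286657, LOC105274739, LOC105275890 and LOC105285570 spread over more than 10-fold within groups below the spikes, while LOC105279483 keeps within 151 to 373 CPM outside its 6 spiking libraries.

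For 4 of the 5 leading sets, members also varied together outside the 5 leading brains. Over the 91 libraries left after the 5 leading ones were taken out, and with each group's mean subtracted from log2(CPM + 1), the median pairwise Pearson correlation was 0.757 among the 47 members of the MinM day 8 replicate 9 set, 0.433 among the 32 of MinB day 1 replicate 12, 0.683 among the 13 of MinM day 1 replicate 19, 0.234 among the 11 of BinB day 1 replicate 2 and 0.730 among the 7 of BinB day 8 replicate 3. It was 0.893 among the 8 genes shared by the leading pair. For all 106 members it was 0.291, and for the 8890 other genes 0.0376. The 91 libraries still held spikes. Over the 69 libraries in which no member spiked, an alternative chosen after seeing the data, the values of the 5 sets in the same order were 0.728, 0.444, 0.690, 0.171 and 0.727, that of all members was 0.312 and that of the other genes 0.0393. The set of BinB day 1 replicate 2 was below all members in both. These correlations are descriptive: they use the same libraries, the genes of a library share its depth, and the sets differ in level.

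The 47-gene set also varied across brains that had few or no spikes. Its median ratio to the age median was over 5 in 7 of the other 95 libraries. Besides MinB day 1 replicate 12 these were MinM day 8 replicate 8 (6.50 times), MinM day 1 replicate 14 (6.42), MinB day 1 replicate 8 (6.31) and BinB day 8 replicates 6, 2 and 9 (6.10, 5.999 and 5.97). In them, 29 to 33 of the 47 members were at least 5 times their median. The same held for 0.09%, 0.259% and 0.36% of the other genes in the first 3 of these libraries and for 0.18%, 0.09% and 0.18% in BinB day 8 replicates 6, 2 and 9. Of the members that spiked neither there nor in MinM day 8 replicate 9, it held for 3.39% to 32.2%, the highest share being in BinB day 8 replicate 6. In the lowest of the 95 libraries the set stood at 0.185 times its median, and the middle library at 0.985 times. The raised brains came from 4 of the 8 groups, and each of these groups also held brains below 1.

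**Figure D5:**
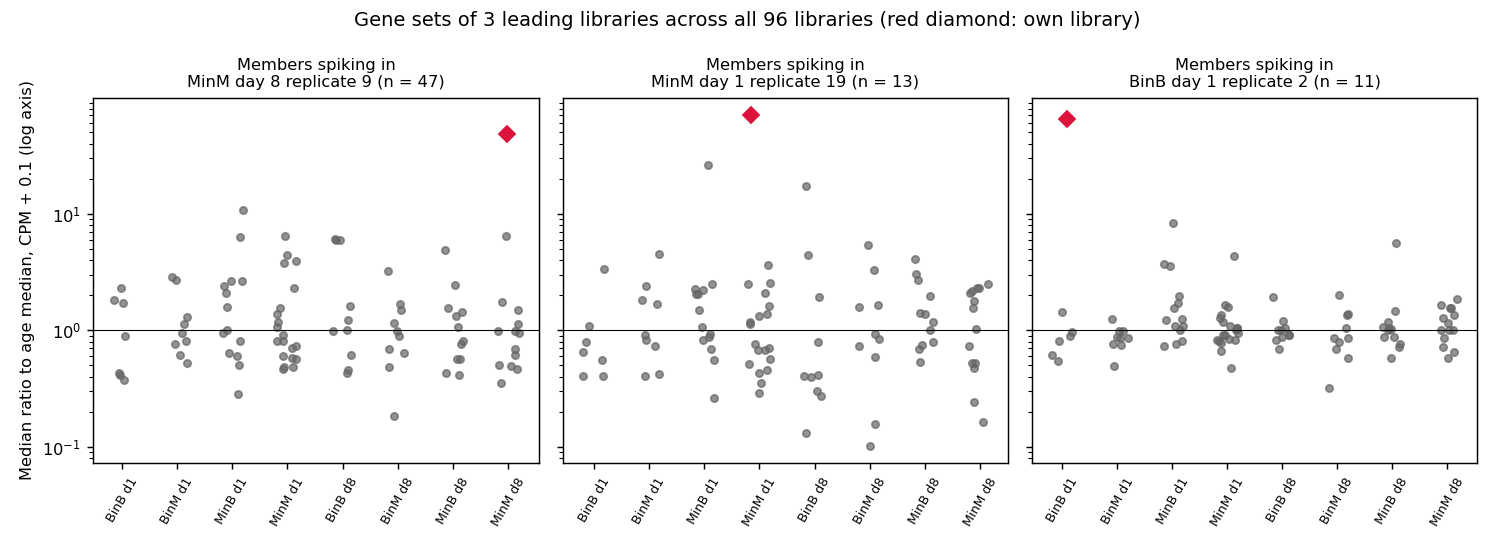
For the members spiking in 3 of the leading libraries, each dot is 1 library and gives the median, over those members, of the ratio of CPM + 0.1 to the age median + 0.1, on a log axis; the red diamond is the library that defines the set. The 47-gene set reaches 10.9 in MinB day 1 replicate 12 and about 6 in 6 further brains, the 13-gene set reaches 26.3 and 17.3 in 2 other brains, and the 11-gene set stays under 8.4 outside its own library.

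The members were ordinary genes in structure. Of the 106, 104 (98.1%) were protein-coding and 2 were lncRNAs, beside 98.9% protein-coding among the 7006 other genes that reached 20 CPM in a library. They had a median of 7 exon blocks and 2874 exonic bases, beside 7 blocks and 3002 bases in those genes. Members lay on all 14 chromosomes, from 0.426% of the features on chromosome 11 to 1.26% of those on chromosome 12. Exonic positions were shared with another gene on the same strand for 5 members and on the other strand for 17 (4.72% and 16.04%, beside 3.17% and 25.1%), and reads of such genes may have been split or assigned across the pair.

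Members were often direct neighbours. There were 10 adjacent pairs involving 19 members, and 9.43% of the 212 positions next to a member were taken by another member, while members make up 0.771% of all features. Those features include genes that never reached 20 CPM, and the share among genes that did was not computed. Of the 10 pairs, 8 shared a spiking library. Since 47 members spiked in MinM day 8 replicate 9 and 32 in MinB day 1 replicate 12, many members share a library wherever they lie. The share over all pairs of members was not computed. Spans overlapped in LOC105277836 and LOC109610862, in LOC105276699 and LOC105276630, and in LOC105279613 and LOC105279611, so these pairs are not separate places. LOC105276259 and LOC105276260 (chromosome 9, positions 1752857 to 1765710, both on the minus strand) both spiked in the leading pair of brains. LOC105279371 and LOC105279372 (chromosome 1, positions 24256642 to 24264152, both on the plus strand) both spiked in BinB day 8 replicate 3. Another pair, LOC105281798 and LOC105281799 on chromosome 2, spiked together in MinB day 1 replicate 12. LOC105282943 and LOC105282944 on chromosome 11 lay on opposite strands and spiked in different libraries.

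The contrasts of genotype and environment were fitted on all genes with edgeR's quasi-likelihood test. The spikes were counted without regard to genotype or environment, while the age limit was applied within the 4 genotype-environment groups, so the rule was not wholly blind to these labels. A member is also a gene with an extreme library, so the group holding that library is high by construction and the member's standard error is wide (median 0.52 on the log2 scale for genotype at day 1, against 0.07 for all genes). Shares of members at a low p can therefore follow from the rule, and they are no test of a group effect. At day 1, 101 of the 106 members passed the filter on low counts. Genotype was called for 13 of them (12.9%), 8 higher and 5 lower in M, at an adjusted p under 0.05, while 14.8% of all 9834 genes tested were called (7.24% higher and 7.52% lower). The members' share was near this background. Their median log2 fold change of 0.78 (86 of 101 above 0, median 0.00 over all genes) was 0.21 (67 of 99 above 0) without MinB day 1 replicate 12 and MinM day 1 replicate 19. In that fit 9 of 99 members were called, 4 higher and 5 lower, while 14.2% of all 9805 genes tested were called.

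The clearest genotype difference was in LOC113563270 (chromosome 13, positions 5481763 to 5484393, minus strand), a single-exon coding gene. At day 1 it had 15.6 to 32.1 CPM in BinB (median 25.2), 20.6 to 31.4 in BinM (median 27.03), 0.720 to 1.69 in MinB (median 1.31) and 0.523 to 4.05 in MinM (median 1.18). At day 8 the B brains went from 20.1 to 49.3 CPM and the M brains from 0.329 to 3.07 CPM. The genotypes did not overlap at either age, and M minus B was -4.30 ± 0.13 (log2, SE) at day 1 and -4.44 ± 0.16 at day 8 (edgeR adjusted p 8.3e-32 and 3.8e-27). It entered the list through 1 library, BinM day 8 replicate 9, at 49.3 CPM against a day 8 median of 2.16 CPM. That median lay within the range of the M brains, and the gene was no member when the median was taken within genotype. The gene shares exonic positions with another on its strand, so its reads are uncertain to that extent.

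LOC105285513 (chromosome 14) was higher in M at both ages. At day 1 it went from 0 to 2.62 CPM in the B groups (medians 0.568 and 0.272) and from 0.440 to 63.5 CPM in the M groups (medians 2.30 and 3.08). The groups overlapped, and the log2 difference was 2.91 ± 0.55 (SE, adjusted p 0.00013 by edgeR), or 2.13 without MinB day 1 replicate 12. At day 8 it was 3.06 ± 0.36 (edgeR adjusted p 4.4e-09), with B brains at 0 to 0.852 CPM and M brains at 0.486 to 4.84 CPM. LOC105276682 (chromosome 6) was lower in M at day 1, with medians of 6.40 and 5.82 CPM in B and 4.75 and 4.50 in M and a log2 difference of -0.54 ± 0.14 (SE, edgeR adjusted p 0.0057).

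Other calls rested on few brains to differing degrees. LOC105276730 was at most 0.241 CPM in B brains of day 1, and in M brains it had medians of 0.0275 and 0.0234 CPM and reached 38.5, 22.9, 19.5 and 14.96 CPM in 4 libraries. Its log2 difference of 5.79 ± 1.38 (SE, edgeR adjusted p 0.0027) was not called by DESeq2 (adjusted p 0.167) or limma-voom (adjusted p 0.298). Without its highest library the gene was still called (5.25, edgeR adjusted p 0.0036). That fit kept its other spike, 22.9 CPM in MinM day 1 replicate 14, so it does not free the call from the rule. LOC105274826, LOC105285601, LOC105285569 and LOC105280211, all called higher in M, also held without their highest library (edgeR adjusted p 0.038, 0.029, 0.042 and 0.038). DESeq2 called each of them as well. None was called by limma-voom (adjusted p 0.120, 0.316, 0.111 and 0.192 in the same order). None was called by edgeR with the replicate number as a block (adjusted p 0.166, 0.692, 0.466 and 0.433). Without both MinB day 1 replicate 12 and MinM day 1 replicate 19, LOC105274826 and LOC105285569 were not called (edgeR adjusted p 0.052 and 0.096). LOC105283796 was called lower in M (log2 -2.02 ± 0.46 SE, edgeR adjusted p 0.0016), but without BinB day 1 replicate 2 the difference was -0.27 (adjusted p 0.604). LOC105279557 was called at -0.95 ± 0.27 (SE, edgeR adjusted p 0.011) and stood at 0.12 (adjusted p 0.586) without that brain. LOC105276822 and LOC105277104 lost their calls without MinB day 1 replicate 12 (edgeR adjusted p 0.104 and 0.138), and LOC105277525 without BinB day 1 replicate 9 (edgeR adjusted p 0.131). LOC105277525 was called in every other alternative that tested it. These included DESeq2 (adjusted p 0.015), limma-voom (adjusted p 0.035) and edgeR with the replicate number as a block (adjusted p 0.0091).

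For social environment at day 1, 1 of 101 members was called by edgeR, and it was the only call among all 9834 genes (0.0102%). LOC105283796 was lower in environment M, with a log2 difference of -2.99 ± 0.48 (SE, edgeR adjusted p 0.00085). Its values were 0.123 to 106 CPM in BinB (median 0.727), 0.0596 to 0.919 in BinM (median 0.378), 0.0563 to 1.88 in MinB (median 0.685) and 0.125 to 0.993 in MinM (median 0.458). All groups overlapped, and without BinB day 1 replicate 2 the difference was -1.24 and not called (edgeR adjusted p 0.710). Members held 7 of the 10 genes with the lowest p in this contrast, while they were 1.03% of the genes tested. Such counts can follow from the rule, since members were chosen for an extreme library. At an unadjusted p under 0.05 there were 23 members (22.8%) by edgeR, against 6.66% of all genes. Without MinB day 1 replicate 12 and MinM day 1 replicate 19, edgeR gave 15 of 99 members, against 6.21% of all genes. BinB day 1 replicate 2 was still included there. DESeq2 gave 12 members, against 7.14% of all genes, limma-voom gave 3, and edgeR with the replicate number as a block gave 4.

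The interaction of genotype and environment at day 1 was called for 0 of 101 members by edgeR, and 0% of all genes were called. At an unadjusted p under 0.05 there were 12 members (11.9%), against 6.24% of all genes. DESeq2 called 1 member, its only call among all genes, and limma-voom 0. At an unadjusted p under 0.05 they gave 13 and 2 members, against 6.68% and 5.13% of all genes. The lowest p was again that of LOC105283796, with a log2 value of 4.68 ± 0.95 (SE, edgeR adjusted p 0.099).

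At day 8, 96 members were tested. Genotype was called for 3 of them (3.13%), LOC113563270 and LOC105285513 as above and LOC105279483, while 8.45% of all 9472 genes tested were called (4.16% higher and 4.29% lower, against 2 members higher and 1 lower). LOC105279483 was called higher in M at 1.56 ± 0.46 (log2, SE, edgeR adjusted p 0.022), with medians of 194, 205, 190 and 201 CPM in BinB, BinM, MinB and MinM. The groups overlapped in all libraries but MinB day 8 replicate 7, and without it the value was -0.02 and not called (edgeR adjusted p 0.771).

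Environment at day 8 was called for 0 members by edgeR, DESeq2 and limma-voom, and 0% of all genes were called by edgeR. At an unadjusted p under 0.05 there were 7, 10 and 0 members in the 3 tools, and by edgeR this was 7.29% of members against 3.32% of all genes. The share of all genes was 3.75% by DESeq2 and 3.05% by limma-voom. The lowest edgeR p was that of LOC105287262, higher in environment M at 2.94 ± 0.77 (log2, SE, adjusted p 0.998), with its spike in BinM day 8 replicate 10.

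The interaction at day 8 was called for 0 members by all 3 tools, and 0% of all genes were called by edgeR. At an unadjusted p under 0.05, however, there were 49 of 96 members (51.04%) by edgeR, 33 by DESeq2 and 0 by limma-voom. The shares of all genes were 2.35%, 2.52% and 1.69% in the same order. The members' median interaction by edgeR was 1.48 on the log2 scale, against 0.00 over all genes, and members held 9 of the 20 genes with the lowest p. Without MinM day 8 replicate 9 and BinB day 8 replicate 3, edgeR gave 6 of 96 members, against 1.93% of all genes. Their median interaction was then 0.60, with 58 of 96 above 0. The 47 genes spiking in MinM day 8 replicate 9 raise the MinM group by construction, so the counts that include this brain are no test of an interaction. The cause of what remained without it was not tested. The lowest p was that of LOC105279483, at -3.18 ± 0.89 (log2, SE, edgeR adjusted p 1.00), whose spike of day 8 is in MinB.

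Close to each limit of the rule there were genes on both sides. LOC105277754 and LOC105277274 were just inside the CPM limit at 20.1 and 21.1 CPM, and LOC105274877 and LOC105286647 just outside at 19.5 and 19.3 CPM. LOC105281830 and LOC105287876 were just inside the ratio limit at 20.3 and 20.6 times, and LOC105279606 and LOC105284545 just outside at 19.7 and 19.6 times. For the age limit, the smallest fold over the 4 groups was 1.96 and 1.95 for LOC113562022 and LOC105276730 inside and 2.04 and 2.05 for LOC105279747 and LOC105284958 outside.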

How the data were processed

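Whole brains of 96 single ants were sequenced with a stranded mRNA kit, per the labels' protocols. The values are raw counts of reads per gene as the authors deposited them, in a single table with gene positions. Alignment used STAR 2.7.8a and assignment to genes featureCounts, per the submitters' processing notes; for the strand setting and build, the sources used here give nothing. RefSeq's Obir_v5.4 table gave chromosome numbers and gene classes, since its spans were equal for all 13553 matched features that are not tRNA genes (100%).

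CPM was computed from the deposited counts and column totals. Exon records were merged into separate exon blocks. Co-spiking members were linked at a Jaccard index of at least 0.5. Genotype, environment and their interaction were tested within each age on all genes with edgeR 4.0.16 (R 4.3.3): quasi-likelihood F test, TMM scaling, filterByExpr at a minimum count of 10, robust dispersion, Benjamini-Hochberg adjustment over all genes tested. DESeq2 1.42.0 and limma-voom (limma 3.58.1), other scalings, filters, spike limits and left-out libraries were alternatives. Both procedures were tested on simulated data. No 2 libraries of a group agreed within sampling noise (lowest chi-square per gene 9.46), so all were kept as separate samples. Intervals cover the spread between individuals; no molecular identifiers are named.

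The members and lists were chosen with earlier results of these data known. Named members were the 10 highest, the 10 with most spiking libraries, at most 5 called per contrast or otherwise the lowest p, the 3 highest in each of 4 leading libraries, the 5 highest of each co-spiking group, and the pairs next to each limit. Other members are named where a neighbour pair, a shared set or a lost call is described, and these were chosen after their values were seen. Planned marker lists and a promoter search need product names and sequences, which were not used here. Replicate numbers come from the titles at day 1 and only from deposit order at day 8.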

Additional observations from a re-analysis of the deposited data

Results flagged for a closer look

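In groups of 4 to 10 libraries, the highest or lowest library was compared with its nearest neighbour relative to the whole range of the group (Dixon's 95% limit). This was done for the number of spiking members and for the 31 members named by rule, in the 4 groups of that size, 128 sets of values in all, of which 49 stood apart. Chance alone flags about 1 in 20, and genes chosen for having extreme libraries flag more often by construction. Flags at values under 1 CPM rest on few reads and were not checked against counting error.

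BinB day 1 replicate 2 held 11 spiking members while the other 6 libraries of its group held 0. BinB day 8 replicate 3 held 7 while the others held at most 1.

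BinB day 1 replicate 2 stood apart as the highest of its group in 9 members, with LOC105287262 at 37.6, LOC105275890 at 12.7, LOC105279557 at 116, LOC105283796 at 106, LOC105284785 at 68.5, LOC105286656 at 15.8, LOC105274797 at 6.16, LOC105278585 at 3.56 and LOC105276730 at 0.241 CPM.
BinB day 8 replicate 3 stood apart as the highest of its group in 9 members, with LOC105275890 at 72.3, LOC105279372 at 75.3, LOC105285570 at 302, LOC105280228 at 37.6, LOC105286656 at 53.2, LOC105275618 at 78.4, LOC105274797 at 24.3, LOC105278585 at 53.6 and LOC105282231 at 47.1 CPM.
BinM day 1 replicate 3 stood apart as the highest of its group in 5 members, with LOC105275890 at 8.99, LOC105286656 at 9.38, LOC105274797 at 2.59, LOC105278585 at 2.46 and LOC105285513 at 2.52 CPM.
BinM day 8 replicate 10 stood apart as the highest of its group in 5 members, with LOC105286657 at 604, LOC105281641 at 155, LOC105287262 at 387, LOC105281721 at 59.1 and LOC105276682 at 8.03 CPM.
BinM day 8 replicate 9 stood apart as the highest of its group in 4 members, with LOC105275890 at 48.4, LOC105279372 at 8.62, LOC105286656 at 40.1 and LOC105278585 at 21.7 CPM.
BinM day 1 replicate 9 stood apart as the highest of its group in 2 members, with LOC105280228 at 17.3 and LOC105276730 at 0.163 CPM.
BinB day 8 replicate 6 stood apart as the highest of its group in 2 members, with LOC105287262 at 4.50 and LOC105283796 at 2.13 CPM.
LOC105279483 was highest of its group in BinB day 1 replicate 9 at 373 CPM, where the next library had 284.
LOC105282231 was highest of its group in BinB day 1 replicate 3 at 0.493 CPM, where the next library had 0.192.
LOC105285513 was highest of its group in BinB day 1 replicate 4 at 2.62 CPM, where the next library had 1.01.
LOC105274739 was highest of its group in BinM day 1 replicate 8 at 105 CPM, where the next library had 50.4.
LOC113563270 was lowest of its group in BinM day 1 replicate 4 at 20.6 CPM, where the next library had 26.1.
LOC105286419 was highest of its group in BinB day 8 replicate 1 at 18.04 CPM, where the next library had 3.37.
LOC105282008 was highest of its group in BinB day 8 replicate 2 at 42.6 CPM, where the next library had 21.05.
LOC105284785 was highest of its group in BinB day 8 replicate 4 at 1.12 CPM, where the next library had 0.670.
LOC105276730 was highest of its group in BinB day 8 replicate 10 at 0.139 CPM, where the next library had 0.0697.
LOC105286419 was highest of its group in BinM day 8 replicate 7 at 7.13 CPM, where the next library had 3.58.
LOC105280228 was highest of its group in BinM day 8 replicate 5 at 43.4 CPM, where the next library had 10.9.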

How the results depend on the processing

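The spike rule gave 106 members, 139 spikes and 27 libraries with a spike. A minimum of 50 CPM gave 62 members, 80 spikes and 16 libraries, 50 times the median gave 50 members and 58 spikes, and 10 times gave 253 spikes. Reading the age limit as any of the 4 groups left 6 members, 6 spikes and 3 libraries. Without the 2 libraries with most spikes of each age there were 28 members and 43 spikes, with 34.9% of spikes in the 2 libraries then leading. Without the 5 leading libraries, an alternative chosen after seeing the data, there were 22 members and 32 spikes, and 18.8% of spikes in the 2 then leading. MinM day 8 replicate 9 held the most spiking members in all settings that kept it except 10 times the median and no age limit, where MinB day 1 replicate 12 led with 65 and 58. TMM or DESeq2 scaling gave 99 and 100 members.

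For genotype at day 1, 13 members were called, but 2 under a stricter filter that kept 38 members, and 4 by limma-voom. Of all genes, 14.8% were called in the main fit, 14.7% under that filter and 13.1% by limma-voom. For environment at day 1, 1 was called, but 4 with library totals, with no filter or by DESeq2, 3 without robust estimation, and 0 under the stricter filter and by limma-voom. Among all genes, 4 were called with library totals, 7 with no filter, 5 by DESeq2 and 3 without robust estimation. For the interaction at day 1, DESeq2 called 1 against 0. DESeq2 replaced outlying counts in 86 genes at day 1, 32 of them members, and in 35 genes at day 8, 18 of them members. Its fits for these members therefore do not use those counts as deposited. Day 8 calls stayed at 2 to 4 for genotype and 0 for the others under every alternative run. Of all genes, 6.71% to 9.95% were called for genotype at day 8 in these alternatives.

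Whether replicate numbers pair the day 1 libraries was not settled. Same-numbered libraries of different groups had deviations correlated at -0.46 to 0.60 (median 0.05, against -0.003 for different numbers). Of 52 such pairs, 20 were over 0.1, and 7 of 44 libraries correlated best with their own number. With the number as a block, 4 members were called for genotype (13 without it), 0 for environment and 0 for the interaction at day 1. Of all genes, 10.1% were called for genotype with the block and 14.8% without it. Day 8 has no shared numbers.

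Of the 17 calls, 10 held without the library with the highest value, 5 were lost and 2 changed sign: LOC105279557 for genotype at day 1 (0.12) and LOC105279483 for genotype at day 8 (-0.0226 on the log2 scale, and -0.0204 by DESeq2). The cause of the other changes was not tested.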
